A study of Mus musculus with 72 samples.

Results

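MHC class II genes encode the proteins with which antigen-presenting cells show peptides from engulfed material to CD4 T cells. The 8 genes described here are H2-Aa and H2-Ab1, the alpha and beta chains of the I-A molecule, H2-Ea and H2-Eb1, the chains of the I-E molecule, H2-DMa and H2-DMb1, the chains of the peptide exchange factor H2-M, Cd74, the invariant chain that fills the groove until the molecule reaches the endosome, and Ciita, the coactivator that switches class II transcription on. They were chosen by name as the core of the pathway. Of the 8 genes, 7 had an array probe set annotated with a single gene symbol and were measured, among 19938 genes tested in all. H2-DMb1 was represented only by a probe set that it shares with H2-DMb2, its near-identical neighbour, so no value is given for it.

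The arrays measured liver mRNA of singly housed wild-type male mice, and each strain had a group on a high-fat diet (HFD) for 21 days and a control group. The groups were 129P2/OlaHsd (129) with 7 HFD and 8 control arrays, C57BL/6J (B6J) with 7 HFD and 8 control arrays, C57BL/6NTac (B6N) with 8 HFD and 8 control arrays, and C3HeB/FeJ (C3H) with 8 HFD and 18 control arrays. All HFD mice and all 129 controls had an age of 17 weeks. Control mice of the other 3 strains were aged 15 to 17 weeks, so age and diet were partly mixed there. The protocol names a low-fat diet for the controls, whose treatment label reads none. The labels number the arrays of a group but do not say which animals they came from, so the tests measure the spread between these arrays, which may be partly technical.

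In the liver, class II molecules are known from Kupffer cells (the resident macrophages), dendritic cells, B cells and sinusoidal endothelial cells, while hepatocytes, which supply most of the RNA, carry little of them at rest. CIITA does not bind DNA itself. It docks on factors already bound to the X and Y boxes of class II promoters, and interferon gamma raises Ciita in many cell types. In a whole-liver sample, fewer cells of a type and less RNA per cell cannot be told apart.

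All of the H2 genes lie on chromosome 17 (GRCm38.p6). There H2-DMa spans 34119693 to 34139101, H2-DMb1 34153191 to 34160229, H2-Ab1 34263227 to 34269418, H2-Aa 34282744 to 34287823, H2-Eb1 34305867 to 34316674 and H2-Ea 34341952 to 34344645. H2-Ea is annotated in this reference, which is built from C57BL/6J, as a transcribed pseudogene. Ciita spans 10480014 to 10531064 on chromosome 16.

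The promoter elements through which CIITA acts are shown for the class II genes on chromosome 17 whose promoter window was at hand, since they are the feature that the family shares. RefSeq windows of 300 bases, 250 before and 50 after the gene start, were searched on both strands for GNAAC, letters of the X box, followed on the same strand by GATTGG, letters of the Y box, starting 20 to 35 bases further on. The letters were chosen after the sequences had been read, and the spacing keeps the motifs from overlapping. Of 32851 windows of all genes, 84.85% held GNAAC, 16.11% held GATTGG and 0.9437% held the pair. The pair was found in 3 of the 4 class II genes with a window. The stretches below run 5′ to 3′ on the strand of the gene, with both motifs in capitals, and come from chr17:34287857-34287914 on the minus strand for H2-Aa, chr17:34305766-34305822 on the plus strand for H2-Eb1 and chr17:34153087-34153144 on the plus strand for H2-DMb1.
H2-Aa: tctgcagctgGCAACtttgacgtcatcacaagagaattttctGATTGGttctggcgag
H2-Eb1: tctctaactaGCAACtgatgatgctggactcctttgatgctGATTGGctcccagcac
H2-DMb1: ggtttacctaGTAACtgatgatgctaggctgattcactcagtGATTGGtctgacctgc

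In these stretches the X box letters started 81, 91 and 94 bases before the gene start for H2-Aa, H2-Eb1 and H2-DMb1. The Y box letters followed 32, 31 and 32 bases after the start of the X box letters, so the spacing was nearly the same in the 3 promoters. The pair was also in the windows of H2-Oa, H2-Ob and H2-Eb2, which are 3 of the 4 other class II chain genes with a window. There the spacing was 32, 29 and 31 bases. The pair was in neither of the 2 windows of H2-DMa, which says only that these letters are not in those windows. A match describes the sequence and is no evidence of binding in these livers.

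Array medians fell into 3 ranges on the log2 scale, 6.46 to 6.65 in 129, 4.51 to 4.67 in B6J with B6N and 3.10 to 3.28 in C3H. The arrays were therefore read as 3 separately normalised sets, although which arrays were normalised jointly is not given in the sources used here. Levels of a gene are set across strains only as log2 signal minus the median of the same array, as a description with no test. By gene expression the samples were liver: the 9 measured hepatocyte markers all lay above the array median in every group. Pancreatic acinar genes, which are not liver genes, varied widely between arrays of a group, by up to 91.1-fold in B6J controls. Clustering split the arrays of each set into 2 parts that held both diets of every strain. No label explains the split, and within-part values are given where they matter.

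H2-Ea was the member with the sharpest difference between strains. Its signal lay above the array median by 1.93 ± 0.25 log2 units in C3H HFD livers (SD, n = 8) and by 1.73 ± 0.49 in C3H controls (n = 18). In the 6 groups of the other strains its mean was between -1.57 and -1.14, below the median of the array. The lowest C3H array, at 0.80, was above the highest array of any other strain, at -0.98. As background, C57BL/6 and 129 strains carry the H2-b haplotype, in which H2-Ea lacks its promoter, and C3H carries H2-k, in which it is intact.

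The other chains ran the opposite way, lowest in C3H. H2-Aa had a mean relative level of 4.40 ± 0.35 in 129 HFD and 4.02 ± 0.18 in 129 control livers, 3.51 ± 0.48 in B6J HFD and 3.16 ± 0.29 in B6J control livers, 3.20 ± 0.34 in B6N HFD and 3.60 ± 0.43 in B6N control livers, and 1.42 ± 0.17 in C3H HFD and 1.45 ± 0.31 in C3H control livers (SD; n as above). The highest C3H array reached 2.02, below the lowest array of any other group, at 2.47, whereas neighbouring B6 groups overlapped. H2-Ab1 lay between 3.07 and 3.57 in the 6 group means outside C3H, whose ranges overlapped, and at 1.74 ± 0.26 in C3H HFD and 1.68 ± 0.24 in C3H control livers. H2-Eb1, the partner of H2-Ea in I-E, likewise had group means of 2.73 to 3.14 outside C3H, and of 1.36 ± 0.39 in C3H HFD and 1.46 ± 0.32 in C3H control livers. H2-Aa, H2-Ab1 and H2-Eb1 are among the most polymorphic mouse genes, and whether the array probes match the C3H alleles was not tested.

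The partners of the chains differed less uniformly. Cd74, the member that lies on chromosome 18, was at 3.63 ± 0.33 in 129 HFD and 3.26 ± 0.43 in 129 control livers, between 2.003 and 2.665 in the 4 B6 group means, and at 0.936 ± 0.395 in C3H HFD and 1.003 ± 0.502 in C3H control livers. Its arrays overlapped between neighbouring strains in this order. H2-DMa lay at 1.549 ± 0.506 in 129 HFD and 1.197 ± 0.172 in 129 control livers, clear of all other groups, whose means were between -0.31 and 0.08 and whose highest array was at 0.28. Ciita was below the array median in all 8 group means, from -0.52 to -0.27, and its groups overlapped. A level below the median cannot be told from background here, so Ciita was at best weakly measured. H2-DMa outside 129, near or below the median, has the same limit. Ranked among all probe sets of its array, H2-Ea stood at a mean percentile of 77.8 in C3H HFD and 75.4 in C3H control livers, and of 20.9 to 24.8 elsewhere.

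**Figure D1:**
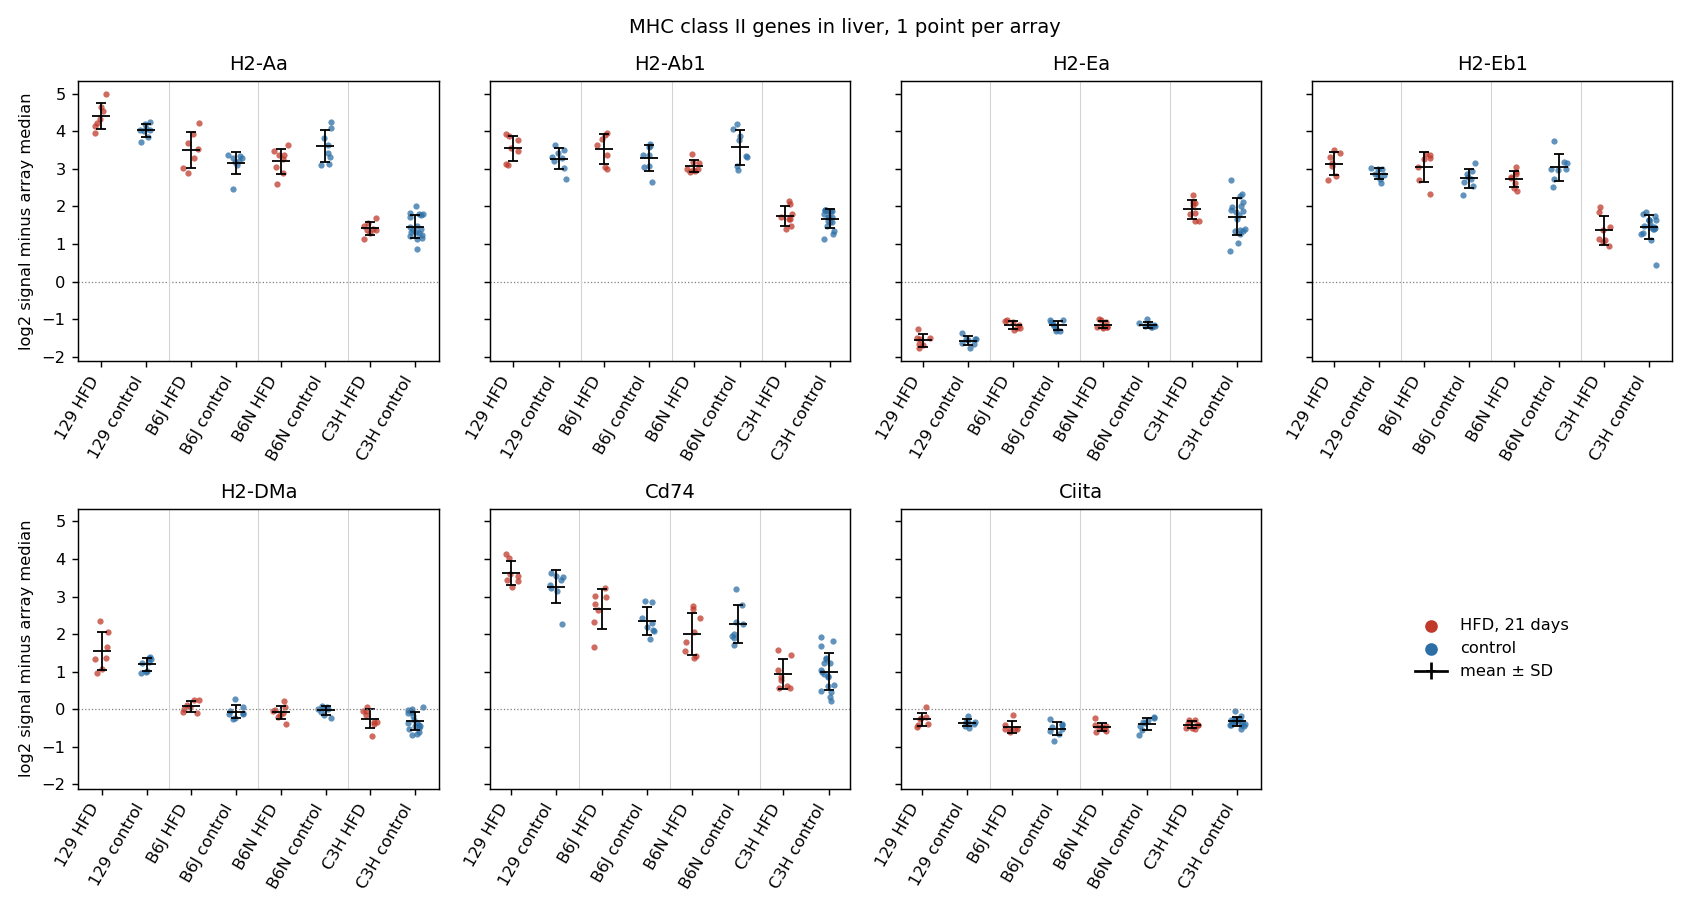
Level of the 7 measured class II genes in each array, as log2 signal minus the median of the array (y axis), for the HFD and control groups of each strain (x axis); points are arrays, bars are mean ± SD, and the dotted line is the array median. H2-Ea lies above the median only in C3H, H2-DMa clearly above it only in 129, and Ciita below it in every group mean.

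HFD effects were tested with limma over all genes, with p-values adjusted by Benjamini-Hochberg over 19938 genes. No class II gene passed an adjusted p of 0.05 in any of the 14 comparisons. The point estimates, none of them called, had different signs by strain. The 7 genes had a median change of 0.27 in 129 livers, 0.25 in B6J livers, -0.27 in B6N livers and -0.01 in C3H livers, against medians over all genes between -0.00263 and 0.00912. Effects and errors below are log2 changes, HFD minus control, ± standard error.

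In B6N H2-Aa, H2-Ab1 and H2-Eb1 had negative estimates on HFD, and H2-Ab1 had the smallest p of any member in any single strain. H2-Ab1 had a lowest, median and highest log2 signal of 7.53, 7.58 and 7.97 in B6N HFD livers, against 7.54, 8.12 and 8.77 in B6N controls. All 8 HFD arrays were below the control mean and 4 of the 8 controls were above the highest HFD array, but the groups overlapped. The change was -0.50 ± 0.15 (95% interval -0.80 to -0.20, limma adjusted p = 0.115, unadjusted p = 0.00136). The error uses a spread pooled over strains, with an SD within groups of 0.31, where the B6 arrays alone had 0.36. The interval and p of H2-Ab1 therefore do not reflect the spread of the B6 arrays alone. The adjusted p fell to 0.0306 when B6N control replicate 2 was left out (change -0.59) and to 0.0374 without B6N control replicate 4 (-0.58), the 2 lowest controls, so the call turned on single arrays.

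H2-Aa, which pairs with H2-Ab1, had a lowest, median and highest of 7.20, 7.85 and 8.25 in B6N HFD livers, against 7.68, 8.08 and 8.85 in B6N controls. The change was -0.40 ± 0.16 (limma adjusted p = 0.569), with 7 of 8 HFD arrays below the control mean. H2-Eb1 had 6.98, 7.31 and 7.58 in B6N HFD livers, against 7.07, 7.57 and 8.33 in B6N controls. Its change was -0.30 ± 0.15 (limma adjusted p = 0.872), and all 8 HFD arrays were below the control mean. Cd74 had an estimate of -0.27 ± 0.21 (-0.17 without B6N HFD replicate 6 and -0.13 without B6N control replicate 3), with the groups overlapping widely, and H2-DMa, Ciita and H2-Ea by -0.05, -0.08 and 0.00. At an unadjusted p under 0.05, 3 of 7 members were lower in B6N HFD livers and none was higher. Over all genes 5.68% passed that bound, 2.54% with a lower signal, and 0.918% passed after adjustment. Within the parts of the arrays the H2-Ab1 difference was -0.40 (3 HFD and 3 control arrays) and -0.56 (5 and 5), and the H2-Aa difference -0.16 and -0.54. All 13 acinar genes had a positive estimate in B6N, none of them called, and their mean log2 signal ranged from 4.87 to 7.98 in B6N HFD livers, against 4.62 to 6.44 in B6N controls. Their part in the class II values was not tested.

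In B6J the same chains had positive estimates on HFD. H2-Aa had a lowest, median and highest of 7.45, 8.07 and 8.82 in B6J HFD livers, against 7.04, 7.79 and 7.96 in B6J controls, and 4 of 7 HFD arrays were above the highest control. The change was 0.36 ± 0.17 (limma adjusted p = 0.810). H2-Eb1 had 6.94, 7.83 and 7.95 in B6J HFD livers, against 6.86, 7.30 and 7.68 in B6J controls, and again 4 of 7 HFD arrays were above the highest control. The change was 0.32 ± 0.16 (limma adjusted p = 0.842). H2-Ab1 had an estimate of 0.25 ± 0.16 and Cd74 of 0.34 ± 0.22, and all 7 members had a positive estimate, the smallest that of H2-Ea at 0.02. At an unadjusted p under 0.05, 2 of 7 were higher and none lower, where 5.78% of all genes passed that bound, 3.08% higher, and 0.296% passed after adjustment. Within the parts H2-Eb1 differed by 0.46 (5 HFD and 4 control arrays) and by 0.06 (2 and 4), so the difference was seen mainly in the first part. The Cd74 difference was 0.38 in the first part and -0.09 in the second, and 0.19 with the parts as a block (limma adjusted p = 0.973). Without B6J HFD replicate 7 the H2-Aa estimate was 0.23, and without B6J control replicate 1 that of H2-Ab1 was 0.16.

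In 129 the chain with the smallest p was H2-DMa. It had a lowest, median and highest of 7.43, 7.88 and 8.82 in 129 HFD livers, against 7.47, 7.74 and 7.86 in 129 controls. The HFD arrays spread on both sides of the controls: 4 of 7 were above the highest control and 1 was below the lowest. The change was 0.34 ± 0.13 (limma adjusted p = 0.444), and it was 0.50 and 0.28 within the parts. Without 129 HFD replicate 1 it was 0.21 (adjusted p = 0.9999). The error uses a spread pooled over strains, with an SD within groups of 0.25, where 129 alone had 0.36. The p of H2-DMa therefore does not reflect the spread in 129 alone. H2-Aa had 10.42, 10.78 and 11.47 in 129 HFD livers, against 10.19, 10.53 and 10.85 in 129 controls, a change of 0.36 ± 0.17 (limma adjusted p = 0.794). With weights that count discordant arrays less, the H2-Aa change was 0.43 with an adjusted p of 0.0243. Cd74 had an estimate of 0.35 ± 0.22 (0.23 without 129 control replicate 6), H2-Ab1 of 0.27 ± 0.16 and H2-Eb1 of 0.26 ± 0.16, while Ciita was at 0.08 ± 0.08. At an unadjusted p under 0.05, 2 of 7 members were higher and none lower, where 5.48% of all genes passed that bound, 3.66% higher, and 0.577% passed after adjustment.

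In C3H, which had the most arrays, no member reached even an unadjusted p of 0.05, where 8.24% of all genes did and 0.853% passed after adjustment. The nearest was H2-Ea, the chain that this strain expresses. Its lowest, median and highest were 4.83, 5.13 and 5.47 in C3H HFD livers, against 4.01, 4.99 and 5.86 in C3H controls, so that all HFD arrays lay within the range of the controls. The change was 0.22 ± 0.12 (95% interval -0.01 to 0.46, limma adjusted p = 0.632). This error uses a spread pooled over strains, with an SD within groups of 0.28, where C3H alone had 0.44. The interval is therefore narrower than the C3H arrays alone would give. The 95% intervals of H2-Aa, -0.29 to 0.26, and of H2-Ab1, -0.17 to 0.34, include changes of either sign. The mean effect over the 4 strains was 0.13 ± 0.06 for H2-DMa (limma adjusted p = 0.356), the only member with an unadjusted p under 0.05, where 11.1% of all genes passed that bound and 3.16% after adjustment. Outside 129 the H2-DMa signal lay near or below the array median. In none of the 4 strains did the HFD and control arrays of a member separate without overlap, where 0.251% (129), 0.346% (B6J), 0.356% (B6N) and 0.0552% (C3H) of all genes did.

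**Figure D2:**
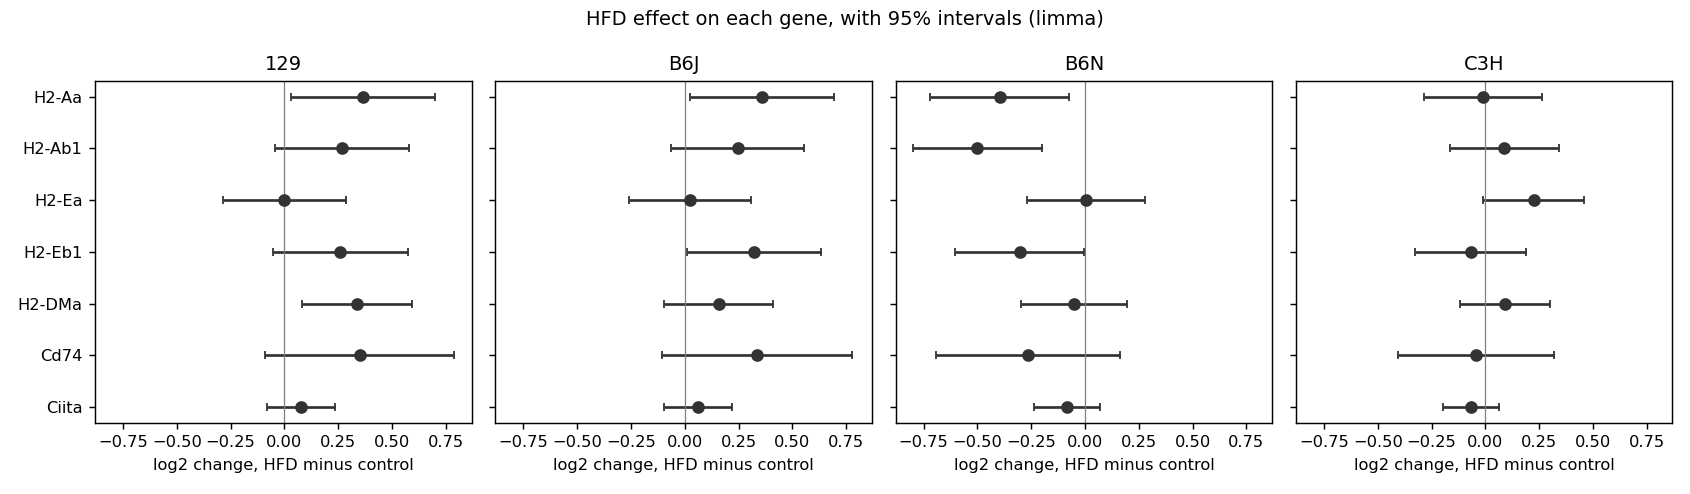
HFD effect on each measured class II gene in each strain, as log2 change of HFD minus control (x axis) with 95% intervals from limma. H2-Aa, H2-Ab1 and H2-Eb1 have positive estimates in 129 and B6J and negative ones in B6N, while Ciita and H2-Ea stay near 0 in these strains.

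The array medians of the sister substrains B6N and B6J lay in 1 range, so they were read as 1 set and their levels were tested directly. Among controls, H2-Aa was 0.47 ± 0.16 higher in B6N than in B6J (limma adjusted p = 0.617), H2-Eb1 0.32 ± 0.15, H2-Ab1 0.30 ± 0.15 and Ciita 0.16 ± 0.08 higher by estimate. These 4 of 7 had an unadjusted p under 0.05, where 6.85% of all genes did, 3.33% higher, and 0.0351% passed after adjustment. Among HFD livers the estimates of H2-Aa, H2-Ab1 and H2-Eb1 were negative, at -0.29, -0.45 and -0.31, while that of Ciita stayed positive at 0.01. Cd74 was negative by estimate in both, at -0.05 among controls. It had a lowest, median and highest of 5.94, 6.52 and 7.27 in B6N HFD livers, against 6.26, 7.32 and 7.78 in B6J HFD livers, a difference of -0.65 ± 0.22 (limma adjusted p = 0.427). H2-Ab1 differed by -0.45 ± 0.16 (limma adjusted p = 0.479). These 2 of 7 were lower at an unadjusted p under 0.05, where 6.14% of all genes passed that bound, 2.61% lower, and 0.191% passed after adjustment. Cd74 also differed by 0.63 between the 2 parts of the B6 arrays, and the first part held 3 of 8 B6N HFD but 5 of 7 B6J HFD arrays. With the parts as a block the Cd74 difference was -0.42 (limma adjusted p = 0.894).

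The test of the diet-by-strain difference itself gave no call. The HFD effect in B6N minus that in B6J was -0.75 ± 0.22 for H2-Ab1 (unadjusted p = 0.000942), -0.76 ± 0.23 for H2-Aa (0.00184) and -0.63 ± 0.22 for H2-Eb1 (0.00520), each with a limma adjusted p of 0.9997. In this comparison 0 of 19938 genes were called (0%), and 3.05% had an unadjusted p under 0.05, 1.68% with a lower effect in B6N. All 7 members had a negative estimate, with a median of -0.60 against -0.00311 over all genes. It uses the same arrays as the comparisons within the substrains and adds no independent evidence of their direction. The errors again use the spread pooled over strains. For H2-Ab1 and H2-Aa this was 0.31 and 0.33, below the 0.36 and 0.39 of the B6 arrays alone.

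Against 129, the HFD effect in B6N was lower by estimate for H2-Ab1, at -0.77 ± 0.22 (limma adjusted p = 0.277), and for H2-Aa, at -0.76 ± 0.23 (limma adjusted p = 0.424). H2-Eb1, H2-DMa and Cd74 made 5 of 7 members with an unadjusted p under 0.05, where 3.93% of all genes passed that bound, 2.42% lower, and 0.0401% passed after adjustment. With array weights the H2-Aa difference was -0.89 and its adjusted p 0.0157. C3H minus B6N gave 0.59 ± 0.20 for H2-Ab1 (limma adjusted p = 0.926), the only member of 7 with an unadjusted p under 0.05, where 3.77% of all genes passed that bound and 0.0451% after adjustment. These comparisons share the B6N arrays. The F test of any difference between strains gave adjusted p-values of 0.412 for H2-Ab1 and 0.582 for H2-Aa. These and H2-Eb1 were the 3 members with an unadjusted p under 0.05 in it, where 3.93% of all genes passed that bound and 0.125% after adjustment. The 3 remaining pairs of strains had no member with an unadjusted p under 0.05. Over all genes, 4.3% passed that bound and 0.0401% the adjusted one for C3H minus B6J, 5.1% and 0.0602% for C3H minus 129, and 2.93% and 0.00502% for B6J minus 129.

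Across arrays of 1 set, with the group means removed, the classical chains moved together in B6 livers. The correlation of H2-Ab1 with H2-Eb1 was r = 0.79 (Spearman rho = 0.77), that of H2-Aa with H2-Ab1 r = 0.79 (rho = 0.73) and that of H2-Aa with H2-Eb1 r = 0.76 (rho = 0.76), over 31 arrays. Each had a permutation p of 1e-05 within groups, the smallest that 100000 permutations can give, and an adjusted p of 0.00021 over the 63 pairs computed in the 3 sets. Without the 2 arrays farthest from the median of the first gene, r was 0.82, 0.74 and 0.74. The relations held within both parts of the B6 arrays, with r = 0.88 and 0.83 for H2-Ab1 with H2-Eb1, 0.89 and 0.67 for H2-Aa with H2-Ab1, and 0.86 and 0.80 for H2-Aa with H2-Eb1 (15 and 16 arrays). Livers with more I-A beta chain signal than their group had more I-E beta chain signal too, although B6 mice express no I-E alpha chain.

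Cd74 followed H2-Eb1 in B6 livers at r = 0.69 (rho = 0.60, permutation p = 6e-05, adjusted p = 0.000756), and at 0.72 and 0.80 within the parts. With H2-Ab1 its pooled r was 0.46 (rho = 0.40, permutation adjusted p = 0.0738), but within the parts r was 0.84 and 0.70, where Cd74 itself differed between the parts by the 0.63 given above. H2-DMa followed H2-Eb1 more loosely, at r = 0.48 (rho = 0.53, permutation p = 0.00628, adjusted p = 0.0440) and at 0.61 and 0.42 within the parts. The B6 group means of H2-DMa lay between -0.08 and 0.08 relative to the array median, so it was weakly measured there. In all, 5 of 21 pairs passed in the B6 set. H2-Ea showed almost no variation there, with a residual SD of 0.09 against a median of 0.20 over all genes.

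Ciita had low correlations with the chains it switches on in B6 livers: r was 0.17 with H2-Aa, 0.17 with H2-Ab1 and -0.09 with H2-Eb1. Ciita lay below the array median in every group mean, so a low r cannot be told from weak measurement. Its pooled r with Cd74 was -0.42 (rho = -0.47, permutation p = 0.0215, adjusted p = 0.0966, permutation adjusted p of rho = 0.0477), but within the parts r was 0.08 and 0.17. In 129 livers 3 of 21 pairs passed over 15 arrays. H2-Ab1 with Cd74 had r = 0.84 (rho = 0.88, permutation adjusted p = 0.000756), H2-Ab1 with H2-Eb1 r = 0.80 (rho = 0.81, adjusted p = 0.0182) and H2-Eb1 with H2-DMa r = 0.80 (rho = 0.82, adjusted p = 0.0440). Within the larger part of 9 arrays these were 0.89, 0.79 and 0.90, and within the part of 6 arrays 0.58, 0.84 and 0.73. In 129 livers Ciita had r = 0.61 with H2-Aa (rho = 0.65, permutation p = 0.0237, adjusted p = 0.0995). It had -0.0004 with H2-Ab1 and 0.35 with H2-Eb1.

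C3H livers had another pattern. Only 1 of 21 pairs passed, H2-Aa with H2-Ea, at r = 0.68 (rho = 0.60, permutation p = 0.00044, adjusted p = 0.00462), with 0.71 and 0.63 within the parts of 14 and 12 arrays and 0.55 without the 2 farthest arrays. H2-Aa with H2-Ab1 was at r = 0.24, and H2-Ab1 with H2-Eb1 at -0.27, where the same pairs had 0.79 and 0.79 in B6 livers. Within the parts of the C3H arrays these were 0.09 and 0.41 for H2-Aa with H2-Ab1, and -0.41 and 0.23 for H2-Ab1 with H2-Eb1. The difference between the sets in these correlations was not tested, and the lower C3H signals lie nearer to background. H2-Ea itself varied in C3H with a residual SD of 0.44, near the top of all genes there (percentile 95.1), as did Cd74 in all 3 sets (percentiles 96.0, 98.8 and 95.9).

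**Figure D3:**
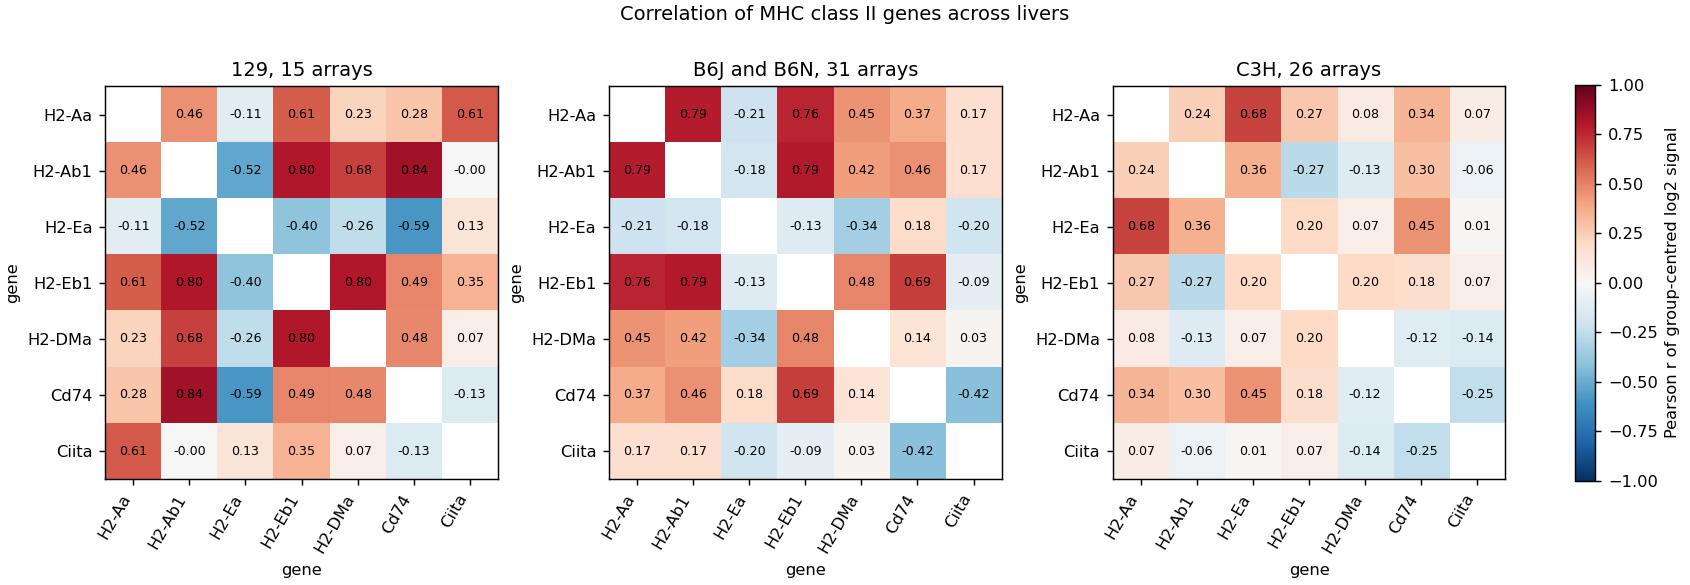
Pearson correlation of each pair of class II genes across the arrays of a set, after subtraction of each group mean, for 129 (15 arrays), B6J with B6N (31 arrays) and C3H (26 arrays); the colour gives r. H2-Aa, H2-Ab1 and H2-Eb1 form a block of r from 0.76 to 0.79 in the B6 set, and H2-Aa with H2-Ea has the highest r in C3H.

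Other genes were ranked by their correlation, over the 72 arrays and with group means removed, with a class II score, the mean of the 6 measured members other than H2-Ea, each scaled by its residual SD. No p is given, since the ranking chose the genes. The highest r was 0.49 for Ms4a6b, a tetraspan membrane protein of immune cells, followed by Cxcl9, an interferon gamma-induced chemokine, at 0.46, Lor, a cornified envelope protein, at 0.45, Fcgr4, an Fc receptor of myeloid cells, at 0.42 and Cyba, a subunit of the phagocyte NADPH oxidase, at 0.42. Fxyd5, Adcyap1r1, Ndufa4l2, Dctpp1 and Gbp2b completed the first 10, down to r = 0.40. The likeness was uneven between sets: Cxcl9 had r = 0.71 in B6 livers, 0.22 in 129 and 0.06 in C3H, and Ms4a6b had 0.41, 0.61 and 0.64.

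Within the B6 set the 3 genes most like the score were Ctss, the protease that trims the invariant chain, at r = 0.72, Gbp8, a guanylate-binding protein, at 0.71 and Cxcl9 at 0.71. Within 129 they were Zdhhc1, Clca3a2 and Cxcr5, at 0.83, 0.81 and 0.80 over only 15 arrays. Within C3H they were Edn3, Bicdl2 and Oasl2, at 0.72, 0.70 and 0.68. No gene was in more than 1 of these 3 groups of 3. Of the marker lists, the 20 macrophage genes had the highest median r with the score in B6 livers, 0.33, and the 11 B cell genes in 129 livers, 0.39, against -0.01 and 0.05 over all genes. This was not shared between sets: macrophage genes had 0.11 in 129 livers and B cell genes 0.10 in B6 livers. In C3H livers these lists had 0.04 and 0.03, and the highest marker list was that of the 13 acinar genes, at 0.17. The 9 hepatocyte genes had a median r of -0.21 in B6 and -0.23 in C3H livers, and of 0.01 in 129 livers.

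The wider pathway was read from lists of genes. Of the 17 other class II genes measured (further chains, RFX and NF-Y factors, endosomal proteases and ubiquitin ligases), none was called in any single strain. The smallest p in each strain belonged to Ifi30, the thiol reductase of the endosome, at 0.42 ± 0.13 in 129 (limma adjusted p = 0.140), to Marchf1, the ligase that removes class II from the surface, at 0.24 ± 0.09 in B6J (limma adjusted p = 0.486), and to Ctsl, a lysosomal protease, at -0.23 ± 0.09 in B6N and -0.21 ± 0.08 in C3H (limma adjusted p = 0.525 and 0.345). In the mean over the 4 strains Ctsl fell by 0.19 ± 0.05 (limma adjusted p = 0.00399), the one call among the 17. Over all genes 3.16% were called there. The 17 genes had a median change of 0.10 in 129 livers, 0.03 in B6J livers, -0.03 in B6N livers and -0.07 in C3H livers. Ctss, the gene most like the class II score in B6 livers, was at 0.37 ± 0.17 in B6J and 0.01 ± 0.16 in B6N (limma adjusted p = 0.771 and 0.9996).

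Of the 16 interferon gamma genes measured, none was called in a single strain. The list had 14 positive and 2 negative estimates in B6J (median 0.14) and 9 and 7 in B6N (median 0.04). Cxcl9, whose values were chosen after they were seen, was at 0.67 ± 0.19 in B6J (limma adjusted p = 0.131) and -0.14 ± 0.18 in B6N (limma adjusted p = 0.9996), with a difference of -0.81 ± 0.26 between the effects (limma adjusted p = 0.9997). The receptor chain Ifngr2 rose by 0.20 ± 0.05 in the mean over the strains (limma adjusted p = 0.00486), the one call of this list there. Over all genes 3.16% were called in that mean. None of the 13 class I presentation genes was called in a single strain. In the mean over strains Psme1, a proteasome activator subunit, fell by 0.17 ± 0.04 (limma adjusted p = 0.0165), the one call of that list. The share over all genes was again 3.16%. None of the 8 costimulation genes was called in these comparisons, and the smallest p in 129 and B6J was that of Cd274, the PD-L1 ligand, at 0.35 ± 0.11 and 0.29 ± 0.11 (limma adjusted p = 0.195 and 0.606).

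Markers of the cells that carry class II were measured beside the members. In 129, 7 of 20 macrophage and Kupffer cell genes rose on HFD and none fell, among them C1qc by 0.75 ± 0.15 (limma adjusted p = 0.00209), Cd5l by 0.79 ± 0.16 (0.00394), Adgre1, which encodes F4/80, by 0.97 ± 0.22 (0.00962) and C1qb by 0.77 ± 0.18 (0.0206). Over all genes 0.577% were called in that comparison. The mean level of the 20 macrophage genes relative to the array median ranged from 1.68 to 2.63 in 129 HFD livers, against 1.35 to 1.82 in 129 controls. The list's median change was 0.44 in 129 and 0.28 in B6J, but 0.05 in B6N and 0.07 in C3H, with no call in the last 3 strains. In the mean over strains 7 of 20 rose, where 3.16% of all genes were called. Of the 20, 15 had an unadjusted p under 0.05, where 11.1% of all genes did. All 20 estimates were positive, with a median of 0.20. Those with the smallest p were Cd5l at 0.41 ± 0.08 (limma adjusted p = 0.000179), Clec4f, a Kupffer cell lectin, at 0.26 ± 0.05 (0.000795), Adgre1 at 0.43 ± 0.10 (0.00589) and C1qc at 0.28 ± 0.07 (0.00720). In B6N its mean level ranged from 1.91 to 2.50 in HFD livers, against 1.89 to 2.32 in controls, so the class II estimates below 0 there stood beside macrophage markers with a median change near 0. The part of these cells in the class II values was not tested.

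Of 11 B cell genes, Bank1, a B cell scaffold, rose by 0.51 ± 0.10 in 129 (limma adjusted p = 0.00279), where 0.577% of all genes were called. None of the 11 was called in the other strains. The mean level of these genes ranged from -0.47 to 0.07 in 129 HFD livers, against -0.47 to -0.27 in 129 controls, relative to the array median. Of 12 dendritic cell genes none was called in a single strain, and Clec9a, a receptor of type 1 conventional dendritic cells, rose by 0.22 ± 0.06 in the mean over strains (limma adjusted p = 0.0286). The list as a whole had 8 positive and 4 negative estimates there, with a median of 0.006, where 3.16% of all genes were called. Of 13 T and NK cell genes none was called in these comparisons. Of 12 sinusoidal endothelial genes none was called in a single strain. Lyve1 rose by 0.22 ± 0.06 in the mean over strains (limma adjusted p = 0.0180), beside the same 3.16% of all genes. Of 9 hepatocyte genes, Cps1, the entry enzyme of the urea cycle, fell by 0.48 ± 0.10 in C3H (limma adjusted p = 0.00491). Over all genes 0.853% were called in C3H. In the mean over strains Cps1 fell by 0.31 ± 0.06 and Tat, a tyrosine-degrading enzyme, by 0.25 ± 0.08 (limma adjusted p = 0.000268 and 0.0473). None of the 13 acinar genes was called for HFD, and their mean level had r = 0.15 with the class II score over the 72 arrays.

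**Figure D4:**
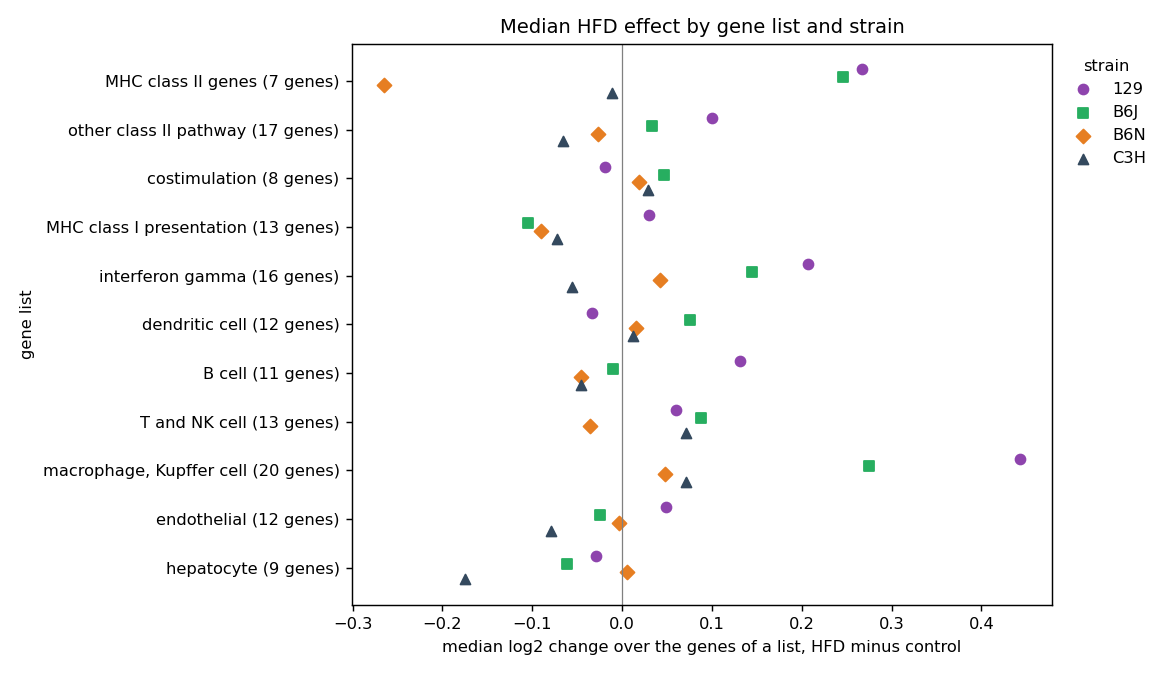
Median log2 change of HFD minus control (x axis) over the measured genes of each list (y axis), 1 symbol per strain. For class II the medians in 129, B6J, B6N and C3H, in that order, are 0.27, 0.25, -0.27 and -0.01, while the macrophage medians are 0.44, 0.28, 0.05 and 0.07.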

How the data were processed

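Liver mRNA was measured on 72 arrays of the Affymetrix Mouse Gene ST type. The deposited table holds log2 signals per probe set. Per the submitters' processing notes they came from RMA (background correction, quantile normalisation and summary of probes) in Affymetrix Expression Console 1.1. Which arrays were normalised jointly is not given in the sources used here. Array medians fell into 3 ranges by strain, so levels were tested only within a range. Of 35556 probe sets, 21789 had 1 gene symbol in the platform annotation, 1621 had several and 12146 had none, and 21698 were updated through Entrez identifiers. The probe set with the highest mean stood for its gene, which left 19938 genes. With no detection calls, a low signal cannot be told from background. Precision depends on how many arrays a group has.

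One limma model (version 3.58.1, R 4.3.3) gave every group its own mean across the 72 arrays, leaving 64 residual degrees of freedom. The spread of a gene was estimated jointly over all groups, so its error is not particular to a strain. Tests were two-sided and moderated, p-values were adjusted by Benjamini-Hochberg over all genes, and the threshold for a call was an adjusted p of 0.05. The procedure was tested on simulated data. The members and lists were chosen with earlier results of these data known. From each list the text names called genes, at most 4 by smallest p per comparison, or else the gene with the smallest p, and it names the genes most like the class II score. Values of Ctss and Cxcl9 beyond that rule were chosen after they were seen. Correlations and motif searches used Python 3.11.15 with numpy 2.4.6, and promoter windows were RefSeq's (GRCm38.p6). The HFD and control arrays that share a replicate number had correlated deviations in B6N (r from 0.10 to 0.46, every pair over 0.1), but r ran from -0.22 to 0.30 in 129, from -0.29 to 0.50 in B6J and from -0.27 to 0.19 in C3H. By this bound alone the replicate numbers would pair the B6N arrays and not those of the other strains, as a hint from the data and not the design. However, the same-numbered control had the highest r for only 2 of 8 HFD arrays in B6N, and for 2 of 7 in B6J. The main model therefore used no pairing. Alternatives covered the normalisation, array weights, blocks, filters, an acinar covariate centred within groups (which leaves the estimates as they are and alters only their errors) and each array left out.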

Additional observations from a re-analysis of the deposited data

Results flagged for a closer look

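Dixon's test was run for 49 combinations of a member gene and a group of 7 or 8 arrays, and not for the 18 C3H controls. In 4 combinations a value lay far from the others, where chance alone gives about 1 in 20, or 2.45. The combinations share arrays, so they are not independent. In 129 controls, replicate 6 had the lowest Cd74 signal, at 8.928 log2 units. The same array had the highest Ciita signal of that group, at 6.483. In B6J HFD livers, replicate 7 had the highest Ciita signal, at 4.463. In B6J controls, replicate 1 had the lowest H2-Aa signal, at 7.039.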

How the results depend on the processing

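The count of class II genes called was recomputed for each of the 14 comparisons, with 9 or 10 other settings and with single arrays left out. Over comparisons and settings together, 135 counts under other settings stayed at 0 and 3 moved. Without 1 array, 492 counts stayed at 0 and 2 moved. These counts share the same 72 arrays. The replicate block changed none (0 called in every comparison). Array weights gave 1 call in 129 (H2-Aa), in B6N minus B6J HFD livers (Cd74, -0.90, adjusted p = 0.0152) and in the B6N minus 129 effect (H2-Aa). In the B6N HFD effect the count ranged from 0 to 1 when 1 array was left out. Among the single-gene changes recomputed, signs turned where the main estimate was near 0, and the cause was not tested. For H2-Ea in 129 (main 0.00), the change was 0.0039 with quantile normalisation, 0.0141 with median centring, 0.0103 with the replicate block and 0.0077 with the parts as a block. For H2-Ea in B6N it was -0.0033 with array weights, and in B6N minus B6J HFD livers -0.0164. Its B6N minus B6J effect was 0.0010 with quantile normalisation, and its B6N minus 129 effect was -0.0087 with median centring, -0.0066 with the replicate block and -0.0040 with the parts as a block. In C3H, array weights gave 0.0093 for H2-Aa and 0.0045 for H2-Eb1, and the replicate block 0.18 for Cd74. The mean effect on Ciita was 0.0114 with array weights, 0.0058 with the replicate block and 0.0011 with the parts as a block. With the parts as a block, B6N minus B6J was 0.0362 for Cd74 in controls and -0.0630 for Ciita in HFD livers. Leaving out 1 array, ranges that crossed 0 were -0.0467 to 0.0301 (H2-Ea, 129), -0.0185 to 0.0212 (H2-Ea, B6N), -0.0265 to 0.0503 (H2-Ea, B6N minus 129 effect), -0.0477 to 0.0276 (H2-Aa, C3H), -0.123 to 0.0165 (Cd74, C3H), -0.0186 to 0.00859 (Ciita, mean effect), -0.183 to 0.0340 (Cd74, B6N minus B6J controls), -0.00229 to 0.0377 (H2-Ea, B6N minus B6J HFD) and -0.0213 to 0.0729 (Ciita, B6N minus B6J HFD). Signals near background limit H2-Ea outside C3H, H2-DMa outside 129 and Ciita in every strain.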
